A study of Caenorhabditis elegans with 2 samples.

Results

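The insulin, TOR and stress signalling genes are 31 genes of Caenorhabditis elegans, chosen by symbol from the pathways that control growth, dauer arrest, lifespan and the response to stress. The Ensembl annotation of the WBcel235 assembly holds 30 of the 31 under these symbols, out of 19973 protein-coding genes on the nuclear chromosomes. The symbol atf-5 has no entry there and was not analysed under that name. It may be an older symbol of the gene listed as atf-4, which the annotation does not say, so the 31 symbols may stand for 30 genes. The measurement was chromatin immunoprecipitation followed by sequencing (ChIP-seq) of ARID-1, which carries an ARID domain, in whole worms. The worms were of strain RW12194, allele st12194, in which CRISPR placed a TY1, EGFP and 3xFLAG tag at the arid-1 locus itself. Animals were bleached, starved at the first larval stage to bring them into step, and taken at 47 hours in the L4 stage. An antibody against GFP pulled down the tagged protein. Control libraries were not used here. All material came from 1 group with 2 biological replicates, so no comparison between groups exists and no test between conditions was made. Whole worms mix all tissues, and the cells in which the protein was bound cannot be told apart.

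In these pathways an insulin-like receptor, DAF-2, acts through a lipid kinase and the AKT kinases to keep the FOXO factor DAF-16 out of the nucleus. TOR kinase, joined to Raptor or Rictor, and the energy sensor AMPK tie growth to nutrients. A p38 MAP kinase cascade acts on the factors SKN-1 and ATF-7 in defence against oxidants and pathogens. Misfolded protein in the endoplasmic reticulum (ER) is sensed by IRE-1, PEK-1 and ATF-6. The factors HSF-1, HIF-1 and ATFS-1 act in the responses to heat, low oxygen and mitochondrial damage.

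Peaks were taken from the authors' conservative list for the series, on the ce11 build, which holds 2330 peaks, 2306 of them on nuclear chromosomes. Each peak has a summit and a signal, the authors' own value, with a median of 76.0 over the nuclear peaks. The ranked list behind it holds 77384 peaks. Conservative peaks have a −log10 of the irreproducible discovery rate (IDR) of at least 2, where a higher value marks a peak as more reproducible between replicates. A further 95 ranked peaks reach 2 and are absent from the conservative list. Signals were also read at the same positions in each replicate's own ranked list and are on a lower scale there at the conservative peaks of the members. The lists give no read counts, so the depth behind each value is unknown, and a gene without a peak is one at which none was detected.

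ARID-1 summits lay at the promoters of few of these genes. A summit was within 500 bp of an annotated transcript 5' end at 4 of 30 members (13.3%), namely pek-1, atf-6, atf-4 and hif-1. The share over all protein-coding genes was 6.12%. A summit lay inside the gene at 5 of 30 members, daf-16, daf-12, aak-2, atf-7 and hif-1, against 4.01% of all genes. By nearest protein-coding 5' end, 11 of 30 members (36.7%) held one, against 9.54% of all genes. The further members reached in this way were xbp-1, ire-1 and atfs-1. With the 5' ends of non-coding genes also competing for a summit, 7 of 30 members held one, against 6.16% of all protein-coding genes, and daf-16, aak-2, atf-7 and ire-1 did not. Without peaks at non-coding genes, 3 of 30 members held a summit inside the gene, against 2.81% of all genes. The members were chosen with earlier results of these data known, so these shares are a description only, and no difference was tested.

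The members are longer than most genes, and more sequence lies nearest to their 5' ends. Their median length was 5905 bp, against 2027 bp for all protein-coding genes, and they had a median of 2 annotated 5' ends against 1. The sequence nearer to their 5' ends than to those of any other gene measured 7599 bp at the median, against 3771 bp. It includes stretches between a gene's own 5' ends, so it does not measure the distance to other genes. Of the 15 members at or above 5905 bp, 4 held a summit inside the gene and 5 held one by nearest 5' end. Among all genes of at least that length the shares were 12.1% and 16.6%. None of these 15 members held a summit within 500 bp of a 5' end, where long genes in general did so in 8.34% of cases. The part of gene length in the shares of the members was not tested.

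**Figure D1:**
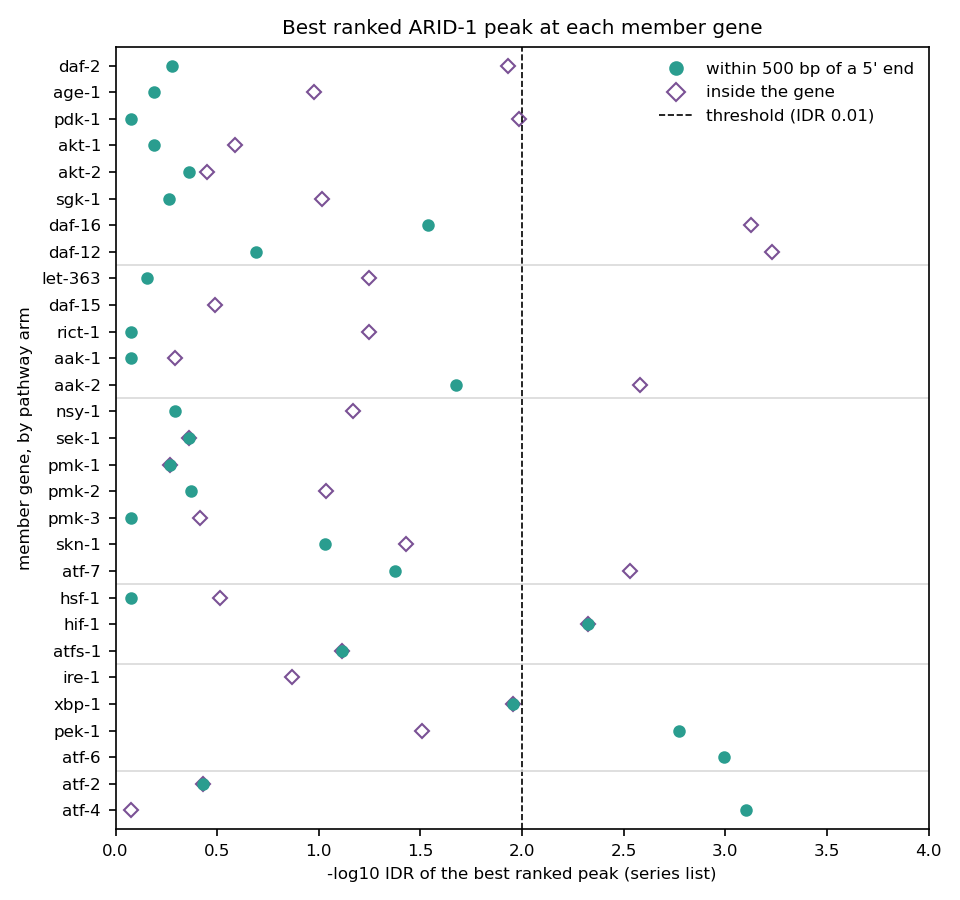
Each row is a member described by its values, ordered by pathway arm, and the horizontal axis gives the −log10 IDR of the best ranked peak of the series list. Filled circles are peaks within 500 bp of a 5' end, open diamonds peaks inside the gene, and the dashed line is the threshold of 2. Circles pass it for hif-1, pek-1, atf-6 and atf-4, and diamonds for daf-16, daf-12, aak-2, atf-7 and hif-1. Both marks of xbp-1 and the diamonds of pdk-1 and daf-2 stand just short of it.

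The ER stress arm held the most promoter summits, at 2 of its 4 genes, against 6.12% of all protein-coding genes. All 4 had a summit by nearest 5' end, against 9.54%, though ire-1 did not once 5' ends of non-coding genes also competed. An arm of 4 genes is too small to set apart from these shares, and no difference was tested. The gene pek-1 encodes the PERK kinase, which slows translation when the ER is overloaded. Its peak at chromosome X 11414897 to 11415166 had its summit 145 bp upstream of the single annotated 5' end. Signal at pek-1 was 30.4 in replicate 1 and 39.5 in replicate 2 (34.97 ± 6.47, SD, n = 2), and 57.8 in the series list. Only 16.22% of nuclear peaks had a lower series signal, so this was one of the weaker peaks of the list. The gene atf-6 encodes a membrane-bound factor released by proteolysis under ER stress. Its summit lay 266 bp upstream of the 5' end, in a peak at chromosome X 12480547 to 12480816. The replicates gave 36.5 and 38.6 at atf-6 (37.5 ± 1.496, SD, n = 2), with a series signal of 75.3, close to the nuclear median. The next gene's start was 3735 bp from the pek-1 summit (F46C3.2) and 3241 bp from the atf-6 summit (F45E6.1).

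The third ER sensor, ire-1, and its target xbp-1 held their summits away from the promoter window. IRE-1 is a kinase and RNase that splices xbp-1 messenger RNA, and XBP-1 is the bZIP factor made from the spliced form. The ire-1 summit lay 1440 bp upstream of the gene, in a peak at chromosome II 8126215 to 8126484 with signals of 31.1 and 30.6 (30.9 ± 0.348, SD, n = 2). No ranked peak of any strength lay within 500 bp of an ire-1 5' end. The peak nearest to xbp-1 was among the stronger ones, with 68.1 in replicate 1 and 61.8 in replicate 2 (65.0 ± 4.47, SD, n = 2). Its series signal of 127 exceeded that of 84.9% of nuclear peaks. It lay at the other end of the gene, at chromosome III 4195279 to 4195548, with the summit 56 bp past the annotated 3' end of xbp-1. The next protein-coding 5' end, that of asd-1, was 1871 bp from this summit. At the xbp-1 promoter itself, a second peak stopped just short of the threshold, with a −log10 IDR of 1.96. That promoter peak had 45.5 in replicate 1 and 23.3 in replicate 2, a wider gap between replicates than at the 3' end.

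The gene atf-4 held the highest series signal of the 4 member peaks within 500 bp of a 5' end. ATF-4 is a bZIP factor of the ATF family, whose mammalian counterpart is translated when PERK and related kinases are active. Its summit lay 109 bp upstream of the gene, in a peak at chromosome X 14810784 to 14811053. Signal at atf-4 was 42.5 in replicate 1 and 36.995 in replicate 2 (39.7 ± 3.88, SD, n = 2), and 82.7 in the series list. A second protein-coding model, WBGene00303075, starts beside atf-4 on the same strand, 115 bp from the summit, so the peak cannot be given to atf-4 alone. At atf-2, another bZIP gene of this family, the best ranked peak reached a −log10 IDR of 0.429.

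The gene hif-1, which encodes the hypoxia-inducible factor, held 2 summits. The weaker lay in an intron, 93 bp upstream of the 5' end of a shorter transcript and 1972 bp into the gene, at chromosome V 20782244 to 20782513. Its signal was 27.7 in replicate 1 and 31.5 in replicate 2 (29.6 ± 2.73, SD, n = 2), and only 9.45% of nuclear peaks were lower in the series list. This summit counts as a promoter summit only because every annotated transcript start was used. The stronger lay 2006 bp upstream of the gene at chromosome V 20778266 to 20778535, outside the 500 bp window. There the replicates gave 57.6 and 68.2 (62.9 ± 7.55, SD, n = 2), and the series signal of 126 exceeded that of 84.2% of nuclear peaks. The next 5' end, that of F38A6.4, was 3032 bp away.

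Sequences at these summits are shown because they carry the promoter-window peaks and the pair of strongest peaks among the members. Each runs 75 bp to either side of the summit on the gene's own strand, 5' to 3', from the RefSeq copy of the WBcel235 assembly. The window of xbp-1 begins where its annotated 3' end stops. Capitals mark letters of any of 6 motifs searched on both strands: TGTTTAC, the core bound by DAF-16; ACGTG, the core of hypoxia response elements; GAANNTTC, a heat shock element pair; TGACGTCA and TGACGTGG, bZIP sites; and GAGAG, a GA repeat, whose matches may overlap each other.
pek-1, chrX:11414957-11415107, minus strand: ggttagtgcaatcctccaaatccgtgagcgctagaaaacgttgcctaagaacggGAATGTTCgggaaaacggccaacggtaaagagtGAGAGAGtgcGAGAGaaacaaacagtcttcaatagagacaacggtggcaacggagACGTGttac
atf-6, chrX:12480607-12480757, plus strand: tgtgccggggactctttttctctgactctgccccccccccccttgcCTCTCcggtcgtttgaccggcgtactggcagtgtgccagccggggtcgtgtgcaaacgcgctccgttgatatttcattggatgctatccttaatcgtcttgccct
atf-4, chrX:14810844-14810994, minus strand: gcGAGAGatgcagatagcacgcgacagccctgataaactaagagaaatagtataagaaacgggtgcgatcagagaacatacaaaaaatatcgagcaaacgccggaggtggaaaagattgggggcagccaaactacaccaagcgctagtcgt
hif-1 intron, chrV:20782304-20782454, plus strand: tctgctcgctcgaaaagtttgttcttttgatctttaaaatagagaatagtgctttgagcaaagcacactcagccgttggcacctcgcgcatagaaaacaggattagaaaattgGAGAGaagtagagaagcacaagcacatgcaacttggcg
hif-1 upstream, chrV:20778326-20778476, plus strand: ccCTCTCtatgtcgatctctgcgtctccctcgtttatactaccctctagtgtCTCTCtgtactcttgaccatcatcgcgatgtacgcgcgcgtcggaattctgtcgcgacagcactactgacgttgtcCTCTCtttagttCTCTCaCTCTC
xbp-1 3' side, chrIII:4195359-4195489, plus strand: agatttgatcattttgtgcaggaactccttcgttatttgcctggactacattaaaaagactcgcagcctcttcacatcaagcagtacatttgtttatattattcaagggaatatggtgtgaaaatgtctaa

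Every one of the 5 printed windows near pek-1, atf-6, atf-4 and hif-1 holds GAGAG or its reverse complement, and the window past xbp-1 holds none of the 6 motifs. Over all 16 member summits, 11 windows of 151 bp held GAGAG, including those of daf-16, aak-2, atf-7 and ire-1. Among all nuclear summits 42.8% of such windows held it, and among windows of that length just upstream of all protein-coding genes 23.8% did. A match describes these letters only and does not show a bound site. The pek-1 window also held ACGTG and GAANNTTC. GAANNTTC was in 2 member windows, those of pek-1 and of the summit 723 bp past the 3' end of daf-12. It was in 8.46% of all nuclear summit windows and 9.41% of promoter windows of that length. ACGTG was found in 2 member windows, those of pek-1 and ire-1, and in 17.4% of all nuclear summit windows. The CRE palindrome TGACGTCA and the element TGACGTGG were in 0 of 16 member windows and in 0.954% and 0.477% of all summit windows. TGTTTAC was in 1 member window, past the 3' end of daf-12, and in 2.47% of all summit windows. The median GC share was 48.3% for the members, 46.4% for all nuclear summits and 32.5% for promoter windows of that length. In the full window of xbp-1 the GC share was 35.1%, and at atf-6 it was 58.9%.

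**Figure D2:**
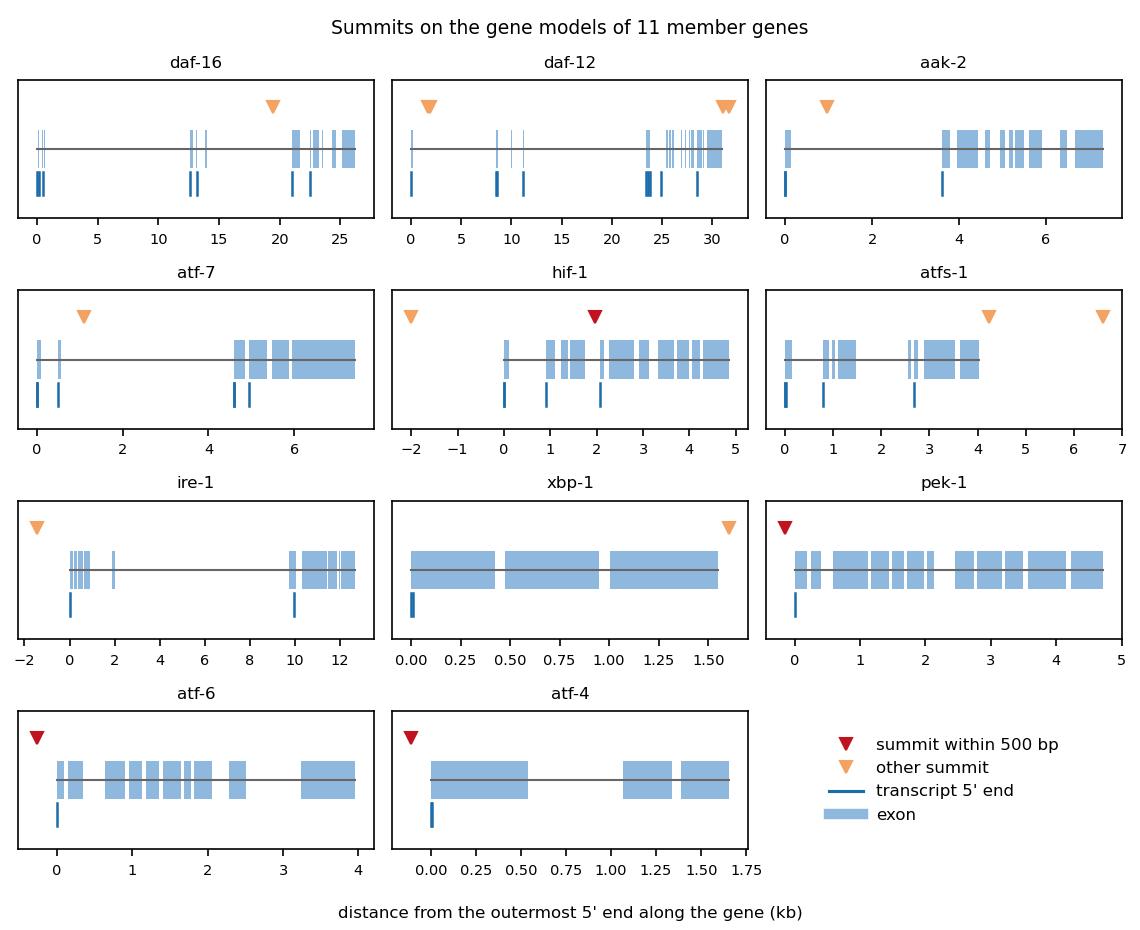
Gene models of the 11 members with a summit, drawn along each gene from its outermost 5' end in kb, on a scale of its own per panel. Boxes are exons, ticks below the line are transcript 5' ends, and triangles are summits, dark red within 500 bp of a 5' end and orange elsewhere. The dark red summits sit before the first exon of pek-1, atf-6 and atf-4 and inside hif-1.

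In the mitochondrial and heat arm, summits were found downstream of atfs-1 and not at hsf-1. ATFS-1 is the bZIP factor that moves to the nucleus when mitochondrial import fails. Its 2 summits lay 191 and 2569 bp past the 3' end, in peaks at chromosome V 14197756 to 14198025 and 14200134 to 14200403. The next 5' end, that of T16A9.3, was 5245 bp from the farther one. Signals at the nearer one were 50.5 in replicate 1 and 40.4 in replicate 2 (45.4 ± 7.14, SD, n = 2). At the farther one they were 54.6 and 33.8 (44.2 ± 14.7, SD, n = 2), the largest gap between replicates among the member peaks. Within 500 bp of an atfs-1 5' end the best ranked peak had a −log10 IDR of 1.12. For hsf-1, the heat shock factor, the best ranked peak in the promoter window stood at 0.078, the lowest value that the ranked list holds, and the best in the gene at 0.512.

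In the insulin arm 0 of 9 genes held a summit within 500 bp of a 5' end, where the share of all protein-coding genes, 6.12%, comes to less than 1 gene in 9. The FOXO gene daf-16 had 1 summit in an intron, 1592 bp upstream of the 5' end of a shorter transcript and 19418 bp into the gene, at chromosome I 10769781 to 10770050. Signal there was 49.7 in replicate 1 and 34.5 in replicate 2 (42.1 ± 10.8, SD, n = 2), and 95.9 in the series list. Closer to its 5' ends, the best ranked peak of daf-16 reached a −log10 IDR of 1.54. The nuclear receptor gene daf-12, whose protein binds dafachronic acids and chooses between reproductive growth and dauer, was nearest to 4 summits. One in an intron 1687 bp downstream of its outermost 5' end, at chromosome X 10637460 to 10637729, had 44.1 and 39.01 in the replicates (41.5 ± 3.58, SD, n = 2). A second peak overlapping it, at 10637661 to 10637930, had a series signal of 7.91, and no ranked peak of either replicate covered its summit. The other 2, at 10666880 to 10667149 and 10667463 to 10667732, lay 140 and 723 bp past the 3' end of daf-12, with replicate means of 46.9 ± 5.30 and 44.3 ± 6.70 (SD, n = 2 each), and both peaks overlapped annotated tRNA genes. In all, 4 of 16 member peaks overlapped a non-coding gene, against 29.9% of nuclear conservative peaks.

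At the receptor and kinases of the insulin arm no summit passed. The receptor gene daf-2 came close in an intron, at chromosome III 3035222 to 3035491, with a −log10 IDR of 1.93 and signals of 22.6 in replicate 1 and 30.8 in replicate 2. This peak passed in the other thresholded list of the series, where daf-2 then held a summit inside the gene. The gene pdk-1, encoding the kinase that activates AKT, had an intronic peak at a −log10 IDR of 1.99, at chromosome X 1323064 to 1323333, with signals of 29.997 and 24.97. In the promoter windows of both genes the best values were 0.280 for daf-2 and 0.078 for pdk-1. For age-1, the catalytic subunit of the lipid kinase, the best value in the window or gene was 0.977. A ranked peak 998 bp upstream of age-1 reached 2.71, with 40.7 and 30.8 in the replicates, yet is not in the conservative list. The best values in the window or gene were 0.590 for akt-1, 0.449 for akt-2 and 1.01 for sgk-1, a kinase gene related to AKT.

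The TOR and AMPK arm held a single summit, at aak-2. Within 500 bp of a 5' end 0 of its 5 genes had one, too few genes to set apart from the 6.12% of all genes. The gene aak-2 encodes a catalytic subunit of AMPK. Its summit was intronic, 973 bp downstream of a 5' end, at chromosome X 16796927 to 16797196. Signal at aak-2 was 34.2 in replicate 1 and 31.0 in replicate 2 (32.6 ± 2.29, SD, n = 2), and the peak overlapped the non-coding gene T01C8.9. In the promoter window of aak-2 the best ranked peak stood at a −log10 IDR of 1.67. The intronic peak of aak-2 is the only one of the 16 member peaks that was not in the other thresholded list of the series. At the TOR kinase gene let-363 the best value in the window or gene was 1.25, and at the Rictor gene rict-1 it was also 1.25. The Raptor gene daf-15 had no ranked peak in its promoter window and 0.489 in the gene, and the second AMPK catalytic gene, aak-1, reached 0.294.

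In the p38 arm the only summit lay in an intron of atf-7, a bZIP factor that acts downstream of the p38 kinase PMK-1. Within 500 bp of a 5' end 0 of the 7 genes of this arm had one, against 6.12% of all genes. By any placement 1 of 7 did, against 11.4%, and 7 genes are too few to set apart from these shares. No difference was tested. The atf-7 summit was 598 bp downstream of a 5' end, just outside the window, at chromosome III 4497826 to 4498095. Signal at atf-7 was 28.5 in replicate 1 and 35.7 in replicate 2 (32.1 ± 5.06, SD, n = 2), and the peak overlapped the non-coding gene C07G2.4. The Nrf factor gene skn-1 had 7 ranked peaks within 500 bp of its 4 annotated 5' ends, the best with a −log10 IDR of 1.03, and a best value of 1.43 in the gene. The upstream kinase genes nsy-1 and sek-1 reached 1.17 and 0.363. The 3 p38 kinase genes stand in a row on chromosome IV, pmk-3, pmk-2 and pmk-1, with gaps of 345 and 145 bp and the same direction. Their best values in the window or gene were 0.415 for pmk-3, 1.03 for pmk-2 and 0.268 for pmk-1. The nearest conservative summit lay 26795 bp from a 5' end of pmk-3.

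The 19 members without a passing summit still carried weak ranked peaks. In 18 of them a ranked peak lay within 500 bp of a 5' end, with −log10 IDR values from 0.078 to 1.03. Over all 30 members, 28 (93.3%) had a ranked peak of any strength in the window, against 58.4% of all protein-coding genes. Among genes with such a peak, the median best −log10 IDR was 0.362 for the members and 0.271 for all genes. The members have more annotated 5' ends, a median of 2 against 1, so more windows were searched per member. The part of this in either comparison was not tested. The best peak in the window or gene of the 19 had a series signal between 14.8 and 59.3, and in 12 of the 19 it lay in an intron. A signal at its summit was found in both replicates for 10 of the 19. The nearest conservative summit was between 2029 bp and 83010 bp (rict-1) from a 5' end.

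**Figure D3:**
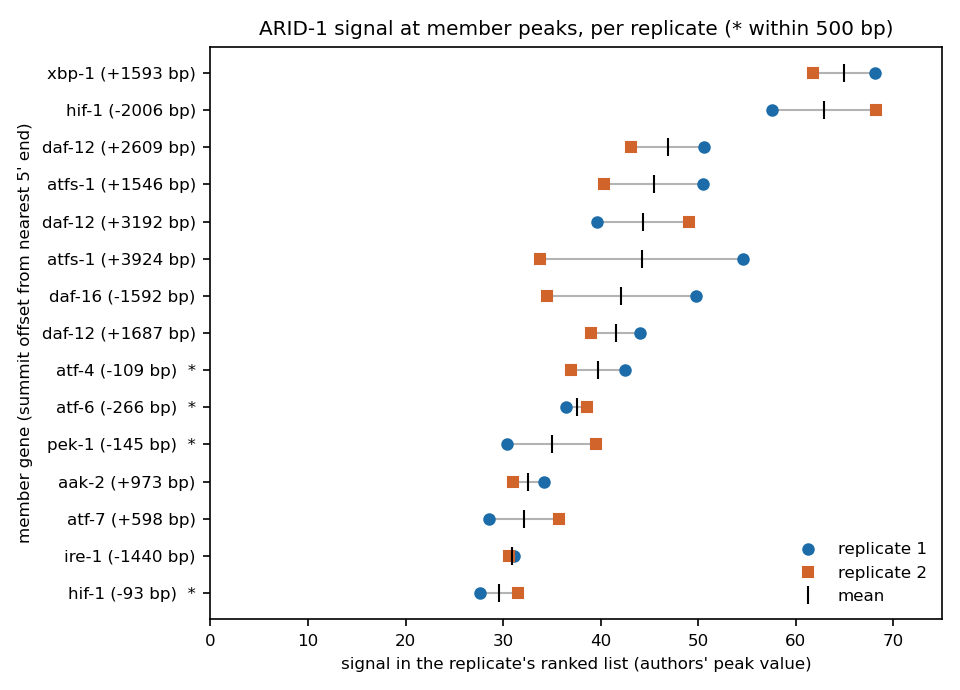
Signal of the 15 member peaks with a value in both replicates, ordered by mean, with circles for replicate 1, squares for replicate 2 and a bar for the mean. Labels give the distance of the summit from the nearest 5' end, negative upstream, and asterisks mark the window of 500 bp. The peaks of xbp-1 and hif-1 at the top stand apart from the rest, which have means from 29.6 to 46.9.

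The replicates ordered the member peaks alike only in part. At the 2 strongest, past xbp-1 and upstream of hif-1, both replicates were above every other member peak. Below them the order changed between replicates: the farther atfs-1 peak and daf-16 were among the 6 highest in replicate 1 and among the 5 lowest in replicate 2. The log2 ratio of replicate 2 to replicate 1 ran from -0.69 to 0.38 over the 15 peaks, with a median of -0.14, and 6 of 15 were higher in replicate 2. Over 2157 nuclear peaks with both values the median was 0.11 and the SD 0.43, and 12 of the 15 member peaks lay within 1 SD of that median. How signal is scaled between the lists is unknown here, so a small offset in this ratio cannot be read as a difference.

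In the replicates' own thresholded lists fewer member peaks were found. Of the 16, replicate 1 held 10 and replicate 2 held 4, counting any overlap between peaks. The 10 include the daf-12 peak with a series signal of 7.91, whose summit no ranked peak of replicate 1 covered. Both replicates held 3 of the 16 (18.8%), upstream of hif-1, past xbp-1 and 140 bp past daf-12, against 33.5% of all nuclear conservative peaks. Of the promoter-window peaks, atf-4 was in the list of replicate 1, atf-6 in that of replicate 2, and pek-1 and the intronic peak of hif-1 in neither. With either replicate's list alone, 1 member held a promoter summit, atf-4 in replicate 1 and atf-6 in replicate 2. The −log10 IDR of the 16 member peaks ran from 2.32 at the intronic peak of hif-1 to 4.49 past xbp-1, with 2.77 at pek-1, 2.99 at atf-6 and 3.10 at atf-4. The median series signal of the 4 promoter-window peaks was 66.6, against 77.5 for 1045 peaks in the window of any protein-coding gene.

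**Figure D4:**
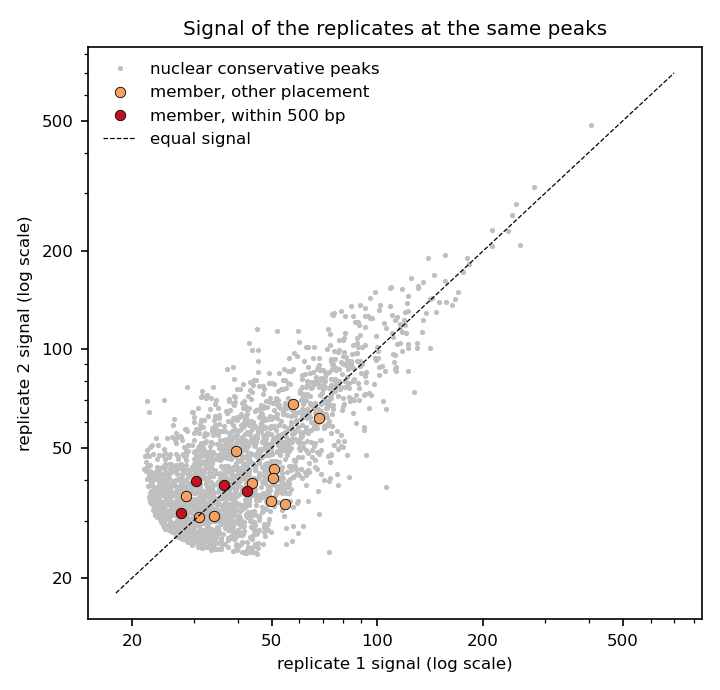
Signal of replicate 2 against that of replicate 1 on log axes at 2157 nuclear conservative peaks in grey, with member peaks in dark red within 500 bp of a 5' end and in orange elsewhere. The dashed line marks equal signal. The promoter-window peaks sit in the lower part of the cloud, between 27.7 and 42.5 in both replicates.

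Of the 4 promoter-window members, 3 are on the X chromosome, which carries 9 of the 30 members and 2731 of the 19973 protein-coding genes. Among all X-linked genes 4.06% held a promoter summit. By any placement 5 of the 9 X-linked members held a summit, against 11.6% of all X-linked genes. On chromosome IV, 0 of 6 members did, against 11.2% of all genes there. These 6 include pmk-3, pmk-2 and pmk-1, which stand in a row, and are too few to set apart from that share. No difference between chromosomes was tested.

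Other genes of these pathways held promoter summits in each of the 5 arms for which they were listed. Of 139 further genes listed by symbol, 136 are in the annotation, and 20 of them (14.7%) had a summit within 500 bp of a 5' end, against 6.12% of all protein-coding genes. These lists were chosen with earlier results of these data known, so the shares are a description only. No difference was tested. The ER list reached 7 of 20 and was led by hsp-3, an ER chaperone of the BiP type, with 119 in replicate 1 and 123 in replicate 2 (121 ± 2.50, SD, n = 2). The others there were the ER calcium-binding chaperone gene crt-1 (52.5 ± 1.56), the chaperone gene enpl-1 (54.0 ± 9.99), pdi-1 (37.5 ± 7.76) and pdi-2 (49.5 ± 8.75), which encode protein disulfide isomerases, and gcn-1 (65.5 ± 27.9, SD, n = 2 each). The isomerase gene pdi-6 had a value in replicate 1 only, 38.3. Windows were shared with another gene at enpl-1 and pdi-1.

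For the next 3 lists the share of all protein-coding genes was likewise 6.12%, and no difference was tested. The p38 and SKN-1 list, which also takes in genes of JNK-type kinases, reached 5 of 16. It included the phosphatase gene vhp-1 (45.3 ± 10.2), the gene wdr-23 for an adaptor that targets SKN-1 (32.9 ± 5.98) and the bZIP gene zip-2 (45.4 ± 15.4, SD, n = 2 each). Also in it were jkk-1 (30.1 ± 4.51) and mlk-1 (36.97 ± 5.41, SD, n = 2 each), kinase genes of the JNK-type branch. The TOR and AMPK list reached 3 of 23. These were rheb-1, the GTPase that activates TOR, at a window shared with spk-1 (66.3 ± 5.30), the AMPK gamma subunit gene aakg-5 (35.3 ± 6.66) and the autophagy factor gene hlh-30 (33.97 ± 6.67, SD, n = 2 each). The mitochondrial, heat and hypoxia list reached 3 of 20, with the mitochondrial protease gene clpp-1 at a window shared with mdt-22 (54.9 ± 14.05), the ubiquitin-like gene ubl-5 (43.2 ± 3.67) and the mitochondrial chaperone gene hsp-6 (42.2 ± 2.85, SD, n = 2 each), whose window is shared with C37H5.5.

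The insulin list had the lowest share of the 5 lists of other genes, with 2 of 57 (3.51%), against 6.12% of all protein-coding genes. Of these 57, 39 are genes for insulin-like peptides, and both genes with a summit are outside those 39. The list falls below 6.12% only with the peptide genes counted in. The difference was not tested. Both genes with a summit encode phosphoserine-binding partners of DAF-16. These were ftt-2 (43.3 ± 9.08) and par-5 (32.9 ± 15.3, SD, n = 2 each), and the par-5 window is shared with M117.3. Of 39 genes for insulin-like peptides, the ligands of DAF-2, 0 held a promoter summit, 0 a summit inside the gene and 1 a summit by nearest 5' end. The shares of all protein-coding genes were 6.12%, 4.01% and 9.54%, so few were to be found among 39 genes, and no difference was tested. The peaks at ftt-2, par-5, hsp-6, crt-1 and pdi-2 also overlapped annotated non-coding genes.

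**Figure D5:**
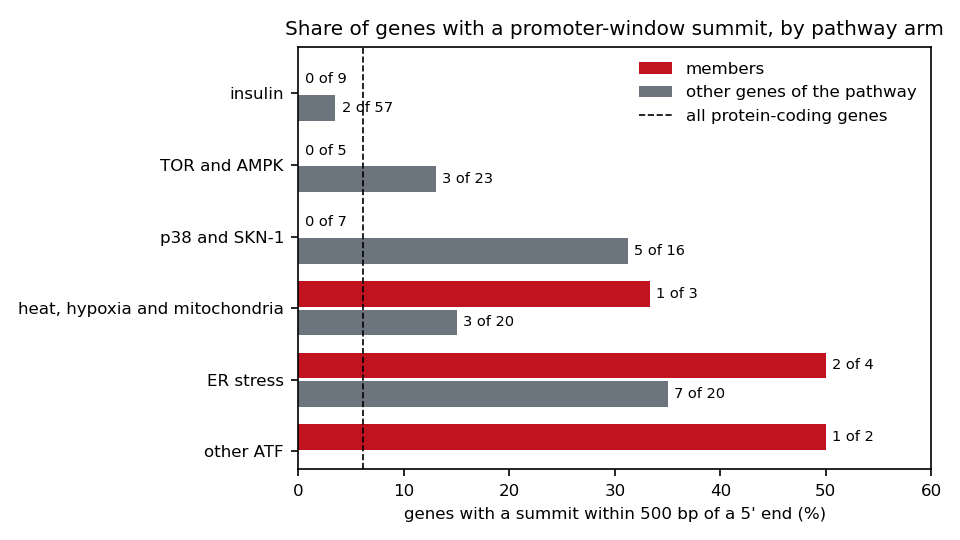
Share of genes with a summit within 500 bp of a 5' end in percent, for the members (upper bar, dark red) and the other listed genes of the same arm (lower bar, grey), with counts beside the bars and a dashed line at 6.12% for all protein-coding genes. Members have 0 of 9, 0 of 5 and 0 of 7 in the insulin, TOR and p38 arms. Among the other genes insulin is lowest with 2 of 57, and 39 of these 57 are insulin-like peptide genes with 0 such summits. The p38 list of other genes also takes in genes of JNK-type kinases. No further genes were listed for the other ATF genes.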

How the data were processed

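ChIP-seq peak lists of ARID-1 from 2 biological replicates of 1 group were used. Per the deposited file notes, positions are on ce11. Signal values in the deposited lists, and the −log10 IDR values of the deposited ranked lists, were made by the authors. Aligner, peak caller and signal scaling: not given in the sources used here. Per the file notes, the series lists come from both replicates' alignments.

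All 8 lists were read with Python 3.11.15 and compared with Ensembl release 115 gene models. No peak ended beyond its chromosome in the WBcel235 sequence. A summit was placed within 500 bp of any transcript 5' end, inside a gene, and at the nearest protein-coding 5' end. Replicate signal is that of the highest ranked peak covering the summit. Placement was tested on simulated summits. Members are described singly except 1 that is counted but not reported here; of the other pathway genes only those with a promoter summit are named. Members and lists were chosen with earlier results of these data known. No test was run. Depth is unknown, and intervals were not computed. Replicates share a group, and their SD may be partly technical. Alternatives changed the peak list, window, 5' ends, overlap, competing genes and matching.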

Additional observations from a re-analysis of the deposited data

How the results depend on the processing

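The members with a promoter summit stayed within 1.5 times the main count of 4 with the other thresholded list of the series (4), windows of 250 bp (3) and 1000 bp (6), outermost 5' ends (3) and overlap of whole peaks (5). The share of all protein-coding genes, 6.12% in the main setting, was 5.89%, 3.84%, 8.36%, 5.68% and 6.73% in these settings, in the same order. With peaks at or above the median nuclear signal the count was 1. The same stricter set gave 2 members with a summit inside the gene, against 1.89% of all genes. By nearest 5' end it gave 6 members, against 5.28% of all genes, and also 6 by any placement. Promoter summits in this set were at 13 other pathway genes and 3.32% of all genes, and the median signal of member promoter peaks was 82.7.

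With one replicate's list alone, members with a promoter summit numbered 1 in both, members with one inside the gene 0 to 2, and members by nearest 5' end or any placement 4 to 6. Other pathway genes numbered 10 to 11, and 3.27% to 3.3% of all genes held a promoter summit. The shares of all genes also fell for the other placements, to 1.97% to 1.98% inside the gene and 5.37% to 5.47% by nearest 5' end. These lists are shorter, with 1230 and 1257 peaks, and which members held a summit differed between them.

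With 250 bp windows, 13 other pathway genes and 3.84% of all genes held a summit, and the median signal of member promoter peaks was 57.8. The mean of the replicates' signals, which is on another scale, was 36.3. With 5' ends of all annotated genes competing for a summit, 7 members held one by nearest 5' end, against 6.16% of all genes, and daf-16, aak-2, atf-7 and ire-1 no longer did. Without peaks at non-coding genes, an alternative chosen after seeing the data, 3 members held a summit inside the gene, without aak-2 and atf-7. The share of all genes was then 2.81%. The median best −log10 IDR of members without a summit, 0.776, was 1.01 with 1000 bp windows and 0.629 in the other ranked list of the series, where the list of ranked peaks differs. The cause of these differences was not tested beyond what each setting removes by construction. No paired analysis was possible because there is 1 group.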
